A study of Mus musculus with 8 samples.

Results

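The inhibitory checkpoint receptors of CD4 T cells were followed from naïve cells to effector Th1, Th2 and Th17 cells. The 10 genes, *Pdcd1*, *Ctla4*, *Lag3*, *Tigit*, *Havcr2*, *Btla*, *Cd160*, *Cd200*, *Cd200r1* and *Cd96*, were taken by symbol out of the 23284 genes of the expression tables. Their levels are FPKM, fragments scaled to the length of the transcript and the depth of the library, so that levels of different genes can be set side by side. Each of the 4 groups had 2 libraries. Of the 10 genes, 9 were among the 11198 genes tested, those whose FPKM averaged 1 or more across the 8 libraries, and *Cd160* was not.

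All cells came from DO11.10 Tg mice, whose transgenic T cell receptor recognizes an ovalbumin peptide. Naïve cells were CD44low CD62Lhi CD4 T cells sorted from the spleen and not cultured. Effector cells were grown from such sorted cells for 6 days with ovalbumin peptide and T cell-depleted splenocytes that had been irradiated. Both Th1 and Th2 cells were grown with 30 U/ml of IL-2, given as culture supernatant. Th1 cells also had 100 U/ml of IL-12 and 1 µg/ml of an antibody against IL-4, and Th2 cells 100 U/ml of IL-4 and 10 µg/ml of an antibody against IFNγ. Th17 cells had 10 ng/ml each of IL-23, IL-6 and IL-1β, and 10 µg/ml of each antibody. The methods give 1 range of ages, in weeks, for all mice of the study and none by group. The sources used here do not say whether the 2 libraries of a group came from separate mice or cultures, so the p-values measure only the spread between these libraries, which may be technical. Culture, stimulation and time differ together between naïve and effector cells and cannot be told apart.

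Inhibitory checkpoint receptors are surface proteins that dampen T cell activation. Several carry tyrosine motifs in their cytoplasmic tails that recruit phosphatases, and others compete with an activating receptor for the same ligand: CTLA-4 with CD28 for CD80 and CD86, and TIGIT and CD96 with CD226 for the poliovirus receptor. Many are absent or low on resting T cells and are induced by antigen, whereas BTLA and CD96 are known on resting cells.

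The labels were checked first. The summed FPKM of *Tbx21* and *Ifng* was 665 to 847 in Th1 libraries and at most 3.85 elsewhere, that of *Il17a* and *Il17f* was 1326 to 1348 in Th17 libraries and at most 1.72 elsewhere, and that of *Gata3*, *Il4* and *Il13* was 373 to 406 in Th2 libraries and at most 26.2 elsewhere. The implied depth was 14097783 to 21055083 fragments a library, lowest in the naïve libraries. Markers of other cells were also measured. Of the CD8 T cell genes, *Cd8b1* was 90.5 and 52.8 FPKM in the naïve libraries and 8.77 to 12.9 FPKM in the effector libraries, and *Cd8a* was 2.94 and 1.77 FPKM in the naïve libraries and at most 0.268 FPKM in the effector libraries. The regulatory T cell genes *Foxp3* and *Ikzf2* together reached 8.21 and 15.4 FPKM in naïve, 2.69 to 2.93 in Th1, 0.572 to 0.887 in Th2 and 4.31 to 7.33 in Th17 libraries. The 3 NK cell genes summed to at most 0.823 FPKM in any library and did not move together. *Ncr1* was 0.139 and 0.209 FPKM in the naïve libraries and at 0 in every effector library. *Klrb1c* rose from a naïve mean of 0.0725 FPKM to 0.463 for Th1 and 0.337 for Th17, with Th2 at 0.0781. *Klra8* was at 0 in both naïve libraries, with means of 0.144 for Th1, 0.127 for Th17 and 0.0184 for Th2. At most 45 implied fragments a library stood behind these NK gene values. Bulk libraries cannot tell fewer cells of a type from less RNA per cell.

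The tested receptors comprised genes higher in every effector subset, a gene lower in every subset, and genes that passed testing in some subsets only. *Ctla4*, *Pdcd1*, *Lag3*, *Tigit* and *Cd200* were higher than in naïve cells in all 3 subsets, a pattern shown by 24.8% of all genes tested. *Cd96* was lower in all 3 subsets, as were 23.8% of all genes tested. *Havcr2* was higher in Th1 cells and close to 0 elsewhere, *Btla* was lower in Th1 and Th2 cells, and *Cd200r1* was lower in Th2 cells. The summed FPKM of the 10 genes was 95.6 and 102 in the naïve libraries, 324 and 319 in Th1, 379 and 402 in Th2 libraries, and 340 and 357 in Th17 libraries. *Cd96* made up 56.3% and 57.4% of the naïve sums, and *Ctla4* made up 50.9% to 78.9% of the effector sums.

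**Figure D1:**
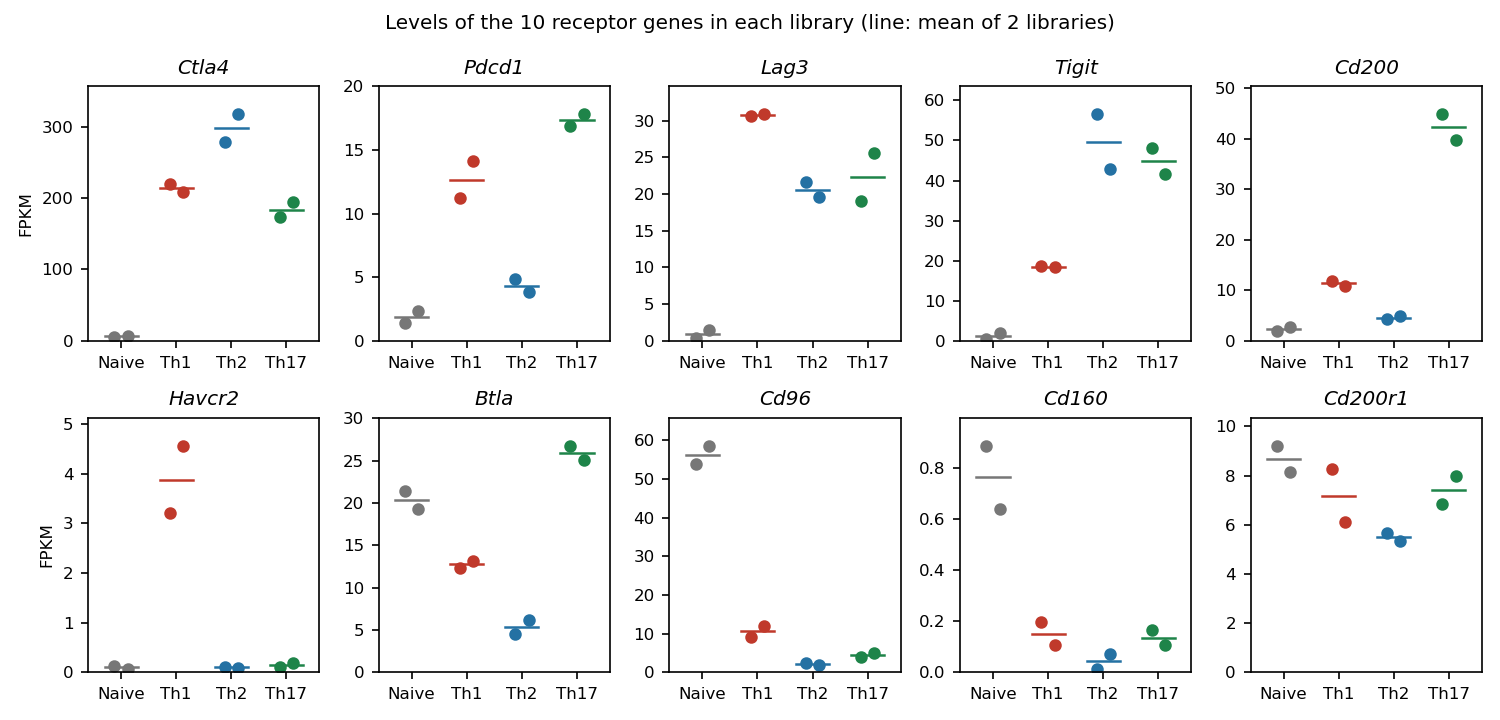
FPKM (vertical axis, linear, a separate scale for each gene) of the 10 receptor genes in naïve, Th1, Th2 and Th17 cells, with a point for each of the 2 libraries of a group and a line at their mean. *Ctla4* reaches 173 to 317 in the effector libraries against 5.96 and 6.83 in naïve cells, *Cd96* falls from 53.8 and 58.5 to 11.95 or less, and *Havcr2* exceeds 1 only in the Th1 libraries.

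Compared with naïve cells, 6 of the 9 tested receptors were higher and 2 lower in Th1 cells (33.8% and 33.5% of all genes tested). In Th2 cells 5 were higher and 3 lower (31.8% and 38.7% of all genes tested). In Th17 cells 5 were higher and 1 was lower (37.5% and 29.8% of all genes tested). On the log2(FPKM + 1) scale, the median differences of the 9 genes were 2.13, 0.73 and 2.70 in Th1, Th2 and Th17 cells, against -0.01, -0.11 and 0.08 over all genes tested. These numbers describe the list and are no test of it. This holds the more since *Havcr2*, with a mean FPKM of 1.06, was tested only because of its level in Th1 cells. *Lag3*, with a naïve mean of 0.914 FPKM, likewise passed the filter through its effector levels. The 3 comparisons share the naïve libraries. All differences below are on this scale, which understates the change of genes with a low level, and each is given with its standard error (SE) and an adjusted p from limma's test.

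**Figure D2:**
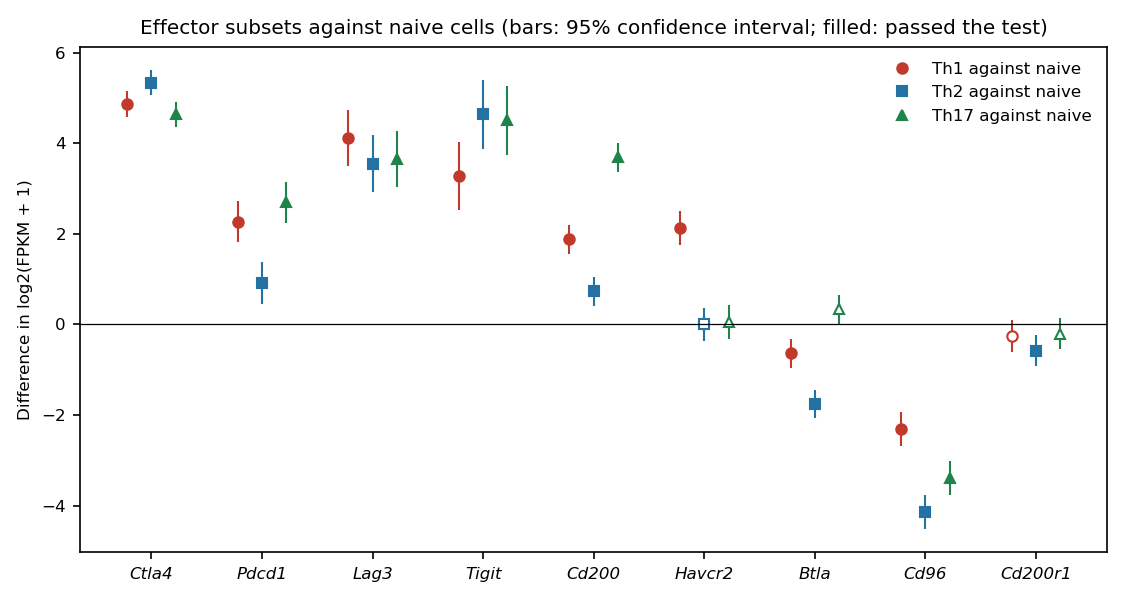
Difference in log2(FPKM + 1) between each effector subset and naïve cells (vertical axis) for the 9 tested receptors, with 95% confidence intervals, 2 libraries a group, and filled symbols where the adjusted p was under 0.05. *Ctla4* lies between 4.64 and 5.34 and *Cd96* between -4.14 and -2.31, while *Havcr2* stands apart from 0 in Th1 cells alone, although with quantile normalization its Th2 and Th17 values turn to -0.57 and -0.68.

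The promoters of 4 receptors are shown because these genes had a large rise and the highest effector FPKM of the 10 receptors (*Ctla4*), a rise with a difference between subsets (*Tigit*), a fall in each subset (*Cd96*) and a level above 1 FPKM in Th1 cells alone (*Havcr2*). RefSeq promoters of build GRCm38.p6, from 250 bases before to 50 bases after a start site, were matched for 8 of the 10 genes, 9 promoters in all, and none was matched for *Lag3* and *Cd200r1*. Both strands were searched for AP-1 (TGANTCA), NFAT (GGAAA), T-box (GGTGTGA) and STAT (TTCNNNGAA) motifs and for TGATAA, a motif of GATA factors, and matches are in capitals, on either strand. The *Ctla4* promoter is chr1:60908775-60909074 on the plus strand, that of *Tigit* chr16:43664135-43664434 on the minus strand, that of *Cd96* chr16:46120199-46120498 on the minus strand and that of *Havcr2* chr11:46454681-46454980 on the plus strand.
Ctla4: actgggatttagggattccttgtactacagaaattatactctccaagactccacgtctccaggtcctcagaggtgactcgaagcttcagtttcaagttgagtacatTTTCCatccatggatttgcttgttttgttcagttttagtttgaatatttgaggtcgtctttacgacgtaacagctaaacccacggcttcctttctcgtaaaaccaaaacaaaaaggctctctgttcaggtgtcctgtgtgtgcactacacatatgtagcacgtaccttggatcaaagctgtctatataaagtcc
Tigit: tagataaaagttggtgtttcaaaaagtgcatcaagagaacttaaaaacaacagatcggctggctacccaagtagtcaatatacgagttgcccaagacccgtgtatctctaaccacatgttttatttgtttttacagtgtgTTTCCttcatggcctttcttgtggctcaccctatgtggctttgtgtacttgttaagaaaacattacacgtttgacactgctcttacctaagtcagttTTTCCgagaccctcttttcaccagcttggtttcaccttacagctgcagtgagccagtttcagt
Cd96: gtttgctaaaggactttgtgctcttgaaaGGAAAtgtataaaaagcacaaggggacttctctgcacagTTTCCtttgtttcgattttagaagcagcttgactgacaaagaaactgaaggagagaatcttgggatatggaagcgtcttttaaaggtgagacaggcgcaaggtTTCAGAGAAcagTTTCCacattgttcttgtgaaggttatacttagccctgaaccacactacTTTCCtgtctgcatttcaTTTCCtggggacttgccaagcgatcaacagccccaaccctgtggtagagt
Havcr2: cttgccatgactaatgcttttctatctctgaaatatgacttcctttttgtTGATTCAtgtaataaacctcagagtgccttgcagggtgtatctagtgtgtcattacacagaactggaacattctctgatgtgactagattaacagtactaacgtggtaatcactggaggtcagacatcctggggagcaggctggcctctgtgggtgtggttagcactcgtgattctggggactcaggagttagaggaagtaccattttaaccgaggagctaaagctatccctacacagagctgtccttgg

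The capitals mark 1 NFAT match in *Ctla4*, 2 in *Tigit*, 5 NFAT matches and 1 STAT match in *Cd96*, and 1 AP-1 match in *Havcr2*, and none of these overlap. The NFAT letters occurred in 61.3% of the 32851 RefSeq promoters, the STAT letters in 8.3% and the AP-1 letters in 7.81%. In the other receptors, the NFAT letters were found in the promoters of *Pdcd1* and *Cd160*. The STAT and T-box letters were in *Cd160*, the T-box letters occurring in 3.98% of all promoters. The promoters of *Btla* and *Cd200* and a further promoter of *Cd160* held no match. The NFAT letters were thus in 5 of the 9 promoters, beside the 61.3% of all promoters. The GATA letters, present in 9.05% of all promoters, were in none of the 9. A match describes the sequence and is not a measured binding site.

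*Ctla4*, on chromosome 1 from 60909025 to 60915830 (mm10), encodes the receptor that competes with CD28 for CD80 and CD86. Its FPKM was 5.96 and 6.83 in the naïve libraries, 219 and 209 in Th1, 279 and 317 in Th2 libraries, and 173 and 194 in Th17 libraries. Every effector library was above both naïve libraries, and the 3 subsets did not overlap, with Th2 the highest and Th17 the lowest. The differences from naïve cells were 4.86, 5.34 and 4.64 in Th1, Th2 and Th17 cells (SE 0.12 each, adjusted p = 2.70e-07, 1.61e-07 and 2.80e-07). In each effector library *Ctla4* had the highest FPKM of the 10 receptors. Its promoter is the first of those printed.

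*Pdcd1*, on chromosome 1 from 94038305 to 94052553, encodes PD-1, the receptor for PD-L1 and PD-L2. Its FPKM was 1.39 and 2.34 in naïve, 11.2 and 14.1 in Th1, 4.89 and 3.81 in Th2 libraries, and 16.9 and 17.8 in Th17 libraries. The effector libraries were all above the naïve ones, in the order Th17, Th1, Th2 with no overlap. The differences from naïve cells were 2.27, 0.91 and 2.70 in Th1, Th2 and Th17 cells (SE 0.19 each, adjusted p = 5.46e-05, 0.00428 and 2.03e-05).

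*Lag3* encodes a relative of CD4 that binds MHC class II and lies on chromosome 6 from 124904359 to 124911705. Its FPKM was 0.388 and 1.44 in naïve, 30.7 and 30.9 in Th1, 21.6 and 19.6 in Th2 libraries, and 19.0 and 25.6 in Th17 libraries. The effector libraries were far above the naïve ones, and the Th2 libraries lay within the range of the Th17 libraries. The differences from naïve cells were 4.11, 3.55 and 3.65 (SE 0.26 each, adjusted p = 1.32e-05, 2.28e-05 and 2.09e-05). Only an implied 16 and 59 fragments stood behind the naïve values. Their mean of 0.914 FPKM was below the cutoff of 1, so *Lag3* was tested because of its effector levels. Its differences from naïve cells are thus not independent of the filter.

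*Tigit*, whose product binds the poliovirus receptor and nectin-2, lies on chromosome 16 from 43648861 to 43664184. Its FPKM was 0.403 and 1.91 in naïve, 18.6 and 18.5 in Th1, 56.5 and 42.9 in Th2 libraries, and 48.2 and 41.6 in Th17 libraries. All effector libraries were above the naïve ones. Th1 libraries were below those of Th2 and Th17, which overlapped. The differences from naïve cells were 3.27, 4.64 and 4.50 (SE 0.32 each, adjusted p = 0.000108, 1.60e-05 and 1.98e-05). The naïve values rested on an implied 7 and 33 fragments.

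In *Pdcd1*, *Lag3* and *Tigit* the second naïve library was the higher one. The same held for *Ctla4* (5.96 and 6.83 FPKM), *Cd200* and *Cd96*, whereas *Havcr2*, *Btla*, *Cd160* and *Cd200r1* were lower in the second naïve library. *Foxp3*, the transcription factor of regulatory T cells, was higher in that library, at 12.8 against 6.68 FPKM, and its part in these levels was not tested. Without the second naïve library the Th1 difference was 4.52 for *Lag3* and 3.80 for *Tigit*, and without the first it was 3.70 and 2.75, and none of these lost its call. With a pseudocount of 0.1, which weighs low levels more, the Th1 differences were 5.15 for *Lag3* and 4.21 for *Tigit*.

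*Cd200*, on chromosome 16 from 45382135 to 45409053, encodes the ligand of the inhibitory receptor CD200R1 and is thus the ligand member of a pair in which both genes were included. Its FPKM was 2.00 and 2.76 in naïve, 11.8 and 10.9 in Th1, 4.32 and 4.85 in Th2 libraries, and 44.8 and 39.7 in Th17 libraries. The 4 groups did not overlap, and the Th17 libraries were the highest by far. The differences from naïve cells were 1.88, 0.73 and 3.68 (SE 0.13 each, adjusted p = 2.33e-05, 0.00223 and 9.40e-07).

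*Cd200r1*, the receptor gene of the pair, lies on chromosome 16 from 44765736 to 44794977. Its FPKM was 9.21 and 8.17 in naïve, 8.25 and 6.13 in Th1, 5.66 and 5.35 in Th2 libraries, and 6.87 and 7.98 in Th17 libraries. The levels lay close together, with the Th2 libraries below all the others and the Th1 range overlapping both the naïve and the Th17 range. *Cd200r1* was lower in Th2 than in naïve cells by -0.57 (SE 0.15, adjusted p = 0.00994), a call lost without the first naïve library (adjusted p = 0.0562) or the second Th2 library (adjusted p = 0.0552). The differences in Th1 and Th17 cells were -0.25 and -0.20 (95% confidence intervals -0.60 to 0.09 and -0.55 to 0.14). Without the first Th1 library the Th1 difference was -0.44 and passed the test (adjusted p = 0.0402), and without the second it was -0.065 (adjusted p = 0.718). Of the 50-base words of its transcripts, 1.16% also occur in other genes, nearly all in its relative *Cd200r4*, so that a small share of its reads could have been split. The ratio of *Cd200* to *Cd200r1* FPKM was 0.217 and 0.339 in naïve, 1.43 and 1.78 in Th1, 0.764 and 0.907 in Th2 libraries, and 6.53 and 4.97 in Th17 libraries.

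*Havcr2*, on chromosome 11 from 46454931 to 46481254, encodes TIM-3, a receptor known on Th1 cells. Its FPKM was 0.139 and 0.0697 in naïve, 3.20 and 4.56 in Th1, 0.117 and 0.0922 in Th2 libraries, and 0.111 and 0.181 in Th17 libraries. The Th1 libraries stood above all others, which overlapped. The implied fragments were 248 and 336 in Th1 libraries and 4 to 11 in each of the other 6. The difference of Th1 from naïve cells was 2.13 (SE 0.16, adjusted p = 2.60e-05), and it was 4.28 with a pseudocount of 0.1 and 1.49 with quantile normalization. Since *Havcr2* was tested only because of its level in Th1 cells, it had to be higher there. The differences of Th2 and Th17 cells were 0.00 and 0.05 (95% confidence intervals -0.37 to 0.37 and -0.32 to 0.42), but quantile normalization turned them to -0.57 and -0.68 and past the threshold (adjusted p = 0.0161 and 0.00794).

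*Btla* encodes a receptor that binds HVEM, the product of *Tnfrsf14*, and lies on chromosome 16 from 45224337 to 45252895. Its FPKM was 21.4 and 19.3 in naïve, 12.3 and 13.2 in Th1, 4.58 and 6.16 in Th2 libraries, and 26.7 and 25.1 in Th17 libraries. The groups did not overlap, and the naïve level lay between those of Th17 and Th1 cells. *Btla* was lower in Th1 cells by -0.63 and in Th2 cells by -1.76 (SE 0.13 each, adjusted p = 0.00473 and 2.71e-05). The Th17 difference of 0.33 did not pass (95% confidence interval 0.02 to 0.65, adjusted p = 0.0613), although it did in a fit of these 2 groups alone (adjusted p = 0.0498).

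*Cd96*, which encodes a receptor for the poliovirus receptor, lies on chromosome 16 from 46035657 to 46120248. Its FPKM was 53.8 and 58.5 in naïve, 9.23 and 11.95 in Th1, 2.52 and 1.96 in Th2 libraries, and 3.999 and 5.03 in Th17 libraries. The naïve libraries were far above the rest, and Th1, Th17 and Th2 followed in this order without overlap. The differences from naïve cells were -2.31, -4.14 and -3.38 (SE 0.16 each, adjusted p = 1.90e-05, 1.03e-06 and 2.82e-06). *Cd96* is also expressed in CD8 T cells. Their markers were higher in the naïve libraries, with *Cd8b1* at 90.5 and 52.8 but *Cd8a* at only 2.94 and 1.77 FPKM, and their part in the difference was not tested.

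*Cd160* encodes another HVEM-binding receptor, known mainly on cytotoxic cells, and lies on chromosome 3 from 96798763 to 96829351. Its FPKM was 0.888 and 0.642 in naïve, 0.197 and 0.106 in Th1, 0.0145 and 0.0736 in Th2 libraries, and 0.165 and 0.108 in Th17 libraries. Both naïve libraries were above every effector library, with an implied 45 and 31 fragments against at most 12. With a mean FPKM of 0.274 it was not tested in the main fit. In a fit without the filter, over 18125 genes, its differences were -0.61, -0.75 and -0.63 in Th1, Th2 and Th17 cells (adjusted p = 0.00137, 0.000521 and 0.00110). The CD8 markers were higher in the naïve libraries here too, and their part was not tested. *Pdzk1*, on the opposite strand, overlaps this gene, and the labels and methods name different kits, of which 1 keeps the strand, so that reads of the pair may not be separable.

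Between the effector subsets, 5 of the 9 tested receptors were higher and 2 lower in Th1 than in Th2 cells (27.4% and 16.9% of all genes tested). In Th17 against Th2 cells 4 were higher and 1, *Ctla4*, was lower (31.7% and 12% of all genes tested). In Th1 against Th17 cells 2, *Havcr2* and *Cd96*, were higher and 3, *Tigit*, *Btla* and *Cd200*, were lower (9.17% and 16% of all genes tested). These comparisons share libraries with each other. *Havcr2*, counted as higher in both comparisons of Th1, was tested only because of its Th1 level and had to be higher there.

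*Pdcd1*, *Cd200*, *Btla* and *Cd96* were lower in Th2 cells than in both other subsets. For *Pdcd1* the difference was 1.35 in Th1 and 1.78 in Th17 against Th2 cells (SE 0.19 each, adjusted p = 0.00164 and 0.000648). For *Cd200* it was 1.15 and 2.95 (SE 0.13 each, adjusted p = 0.000697 and 1.75e-05). For *Btla* it was 1.12 and 2.09 (SE 0.13 each, adjusted p = 0.000754 and 7.54e-05). These 3 genes rank Th17 above Th1, and the Th1 against Th17 difference was -1.81 for *Cd200* and -0.97 for *Btla* (adjusted p = 0.000155 and 0.00242). For *Pdcd1* it was -0.43 and did not pass (95% confidence interval -0.89 to 0.02, adjusted p = 0.156). *Cd96* had the other order, with 1.83 in Th1 and 0.77 in Th17 against Th2 cells (SE 0.16 each, adjusted p = 0.000171 and 0.00882) and 1.07 in Th1 against Th17 cells (adjusted p = 0.00327). The Th17 against Th2 call of *Cd96* was lost without the second Th2 library (adjusted p = 0.0619) or the second Th17 library (adjusted p = 0.0645).

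*Ctla4* and *Tigit* had their highest means in Th2 cells. *Ctla4* was lower in Th1 than in Th2 cells by -0.47 (SE 0.12, adjusted p = 0.0166) and in Th17 than in Th2 cells by -0.70 (adjusted p = 0.00401), and the Th1 against Th17 difference of 0.22 did not pass (95% confidence interval -0.06 to 0.50). The Th1 against Th2 call of *Ctla4* was lost without the first Th1 (adjusted p = 0.0547), the second Th1 (adjusted p = 0.0873) or the second Th2 library (adjusted p = 0.0887). *Tigit* was lower in Th1 than in Th2 cells by -1.36 (SE 0.32, adjusted p = 0.0130) and than in Th17 cells by -1.23 (adjusted p = 0.0307). The first of these calls was lost with a pseudocount of 0.1 (adjusted p = 0.0803) and without the first Th1, the second Th1 or the first Th2 library (adjusted p = 0.0577, 0.0634 and 0.0758). The second was lost with that pseudocount (adjusted p = 0.155), without the filter (adjusted p = 0.0579) and without any 1 of its 4 libraries (adjusted p = 0.104 to 0.145). Th17 and Th2 cells differed by -0.13 in *Tigit*, with a 95% confidence interval of -0.89 to 0.62.

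*Havcr2* was higher in Th1 than in Th2 cells by 2.13 and than in Th17 cells by 2.08 (SE 0.16 each, adjusted p = 8.19e-05 and 0.000159). Being tested only because of its level in Th1 cells, it had to be higher there. *Lag3* and *Cd200r1* passed in none of the 3 subset comparisons. The Th1 against Th2 difference of *Lag3* was 0.56 (95% confidence interval -0.06 to 1.18, adjusted p = 0.128), and it passed in a fit of those 2 groups alone (adjusted p = 0.0150). Its differences were 0.10 in Th17 against Th2 cells, which median scaling, quantile normalization and leaving out the second Th17 library turned negative, and 0.46 in Th1 against Th17 cells (95% confidence intervals -0.52 to 0.72 and -0.16 to 1.08). For *Cd200r1* the differences were 0.32 in Th1 against Th2, 0.37 in Th17 against Th2 and -0.05 in Th1 against Th17 cells, the last of which turned positive with both scalings. Without the second Th1 library the Th1 against Th2 difference of *Cd200r1* was 0.51 and passed (adjusted p = 0.0469), and without the first it was 0.133 (adjusted p = 0.509).

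**Figure D3:**
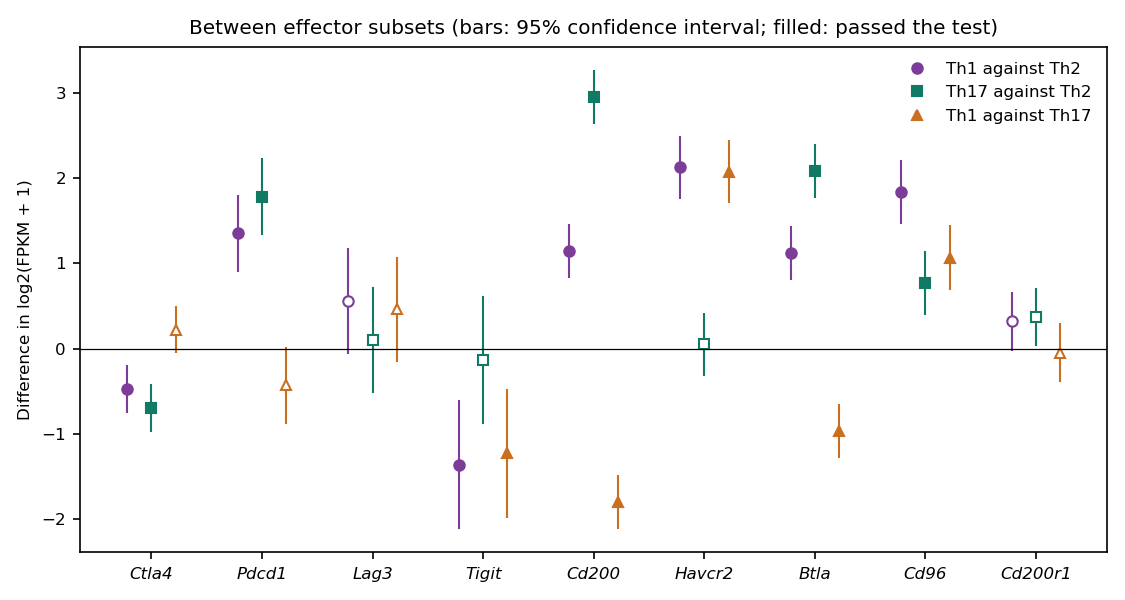
Difference in log2(FPKM + 1) between pairs of effector subsets (vertical axis) for the 9 tested receptors, with 95% confidence intervals, 2 libraries a group, and filled symbols where the adjusted p was under 0.05. *Cd200* spans -1.81 (Th1 against Th17) to 2.95 (Th17 against Th2), *Havcr2* is high in both comparisons of Th1, and the 3 values of *Lag3* and of *Cd200r1* are open, of which those of *Lag3* in Th17 against Th2 and of *Cd200r1* in Th1 against Th17 change sign with median scaling.

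The make-up of the receptor mRNA also differed between groups. After *Cd96*, *Btla* took 22.4% and 18.9% and *Cd200r1* 9.64% and 8.01% of the naïve sum. After *Ctla4*, *Lag3* was next in Th1 libraries (9.45% and 9.68%), *Tigit* in Th2 libraries (14.9% and 10.7%), and *Tigit* and *Cd200* in Th17 libraries (14.2% and 11.7% for *Tigit*, 13.2% and 11.1% for *Cd200*). *Havcr2* made up 0.986% and 1.43% of the Th1 sums. These shares add FPKM of different genes and are given as a description.

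**Figure D4:**
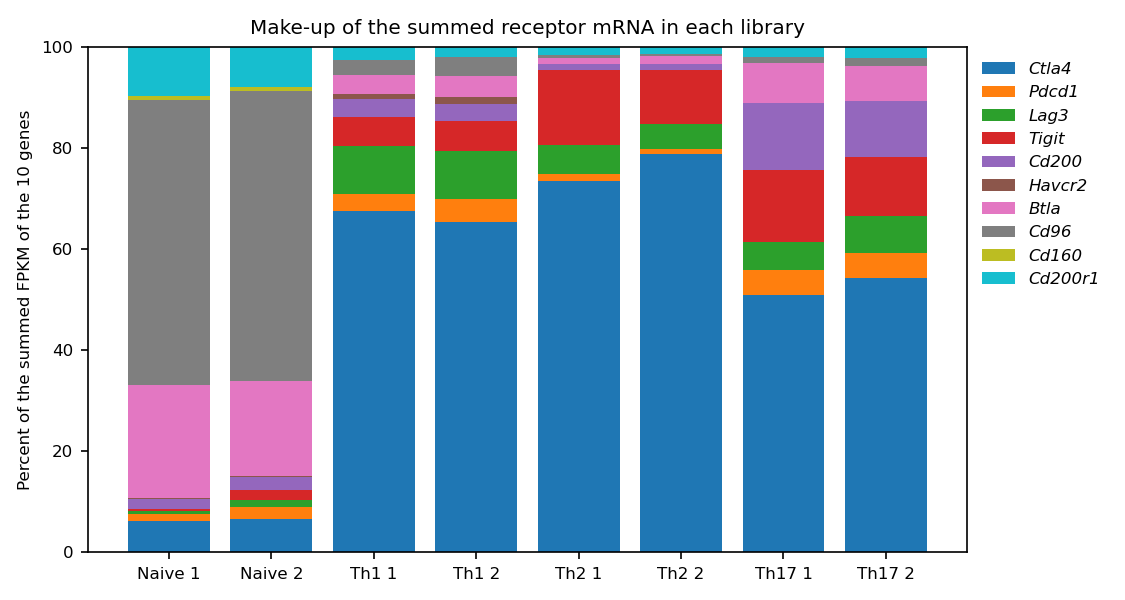
Share of each receptor gene in the summed FPKM of the 10 genes (vertical axis, percent) in each of the 8 libraries. *Cd96* fills 56.3% and 57.4% of the naïve bars, and *Ctla4* fills 65.4% to 78.9% of the Th1 and Th2 bars and 50.9% and 54.3% of the Th17 bars.

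Of the 4 activating receptors listed beside the checkpoint receptors, 2 were higher and 2 lower than in naïve cells in each subset. Of all genes tested, 33.8%, 31.8% and 37.5% were higher and 33.5%, 38.7% and 29.8% lower in Th1, Th2 and Th17 cells. *Icos*, the costimulatory gene next to *Ctla4*, was 4.48 and 5.78 FPKM in naïve, 290 and 230 in Th1, 376 and 307 in Th2 libraries, and 245 and 213 in Th17 libraries, and rose by 5.41, 5.80 and 5.23 in Th1, Th2 and Th17 cells (adjusted p = 6.38e-07, 4.33e-07 and 6.56e-07). *Cd28*, the main costimulatory receptor of naïve cells, was 63.7 and 52.2 FPKM in naïve, 158 and 136 in Th1, 118 and 115 in Th2 libraries, and 157 and 127 in Th17 libraries, and rose by 1.33, 1.00 and 1.28 (adjusted p = 0.000226, 0.000854 and 0.000261). *Cd226*, the activating receptor for the ligands of TIGIT and CD96, was lower by -2.42, -3.50 and -0.80 (adjusted p = 2.88e-06, 4.93e-07 and 0.000592). *Crtam*, the gene of another activating receptor, was 4.93 and 5.998 FPKM in naïve libraries and at most 0.0917 FPKM in effector libraries. It was tested only because of its level in naïve cells, so that it had to differ, and it was lower by -2.65, -2.63 and -2.59 (adjusted p = 3.32e-06, 2.75e-06 and 3.18e-06).

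The FPKM ratio of *Ctla4* to *Cd28* was 0.0937 and 0.131 in naïve libraries and 1.10 to 2.77 in the effector libraries, with the Th2 libraries the highest at 2.37 and 2.77. That of *Tigit* to *Cd226* was 0.0276 and 0.115 in naïve, 9.88 and 7.92 in Th1, 127 and 86.8 in Th2 libraries, and 5.61 and 4.95 in Th17 libraries. The ratio of *Cd96* to *Cd226* was 3.69 and 3.52 in naïve, 4.91 and 5.13 in Th1, 5.66 and 3.97 in Th2 libraries, and 0.465 and 0.597 in Th17 libraries, so that both genes were lower in effector cells and the ratio was below 1 in Th17 libraries alone. The ratio of *Btla* to *Tnfrsf14* was 0.360 and 0.146 in naïve, 1.01 and 0.730 in Th1, 0.617 and 0.780 in Th2 libraries, and 1.84 and 1.21 in Th17 libraries. The denominators of the *Tigit* ratio were as low as 0.444 FPKM in Th2 cells. Those of the *Btla* ratio differed widely between the naïve libraries, at 59.6 and 133 FPKM.

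**Figure D5:**
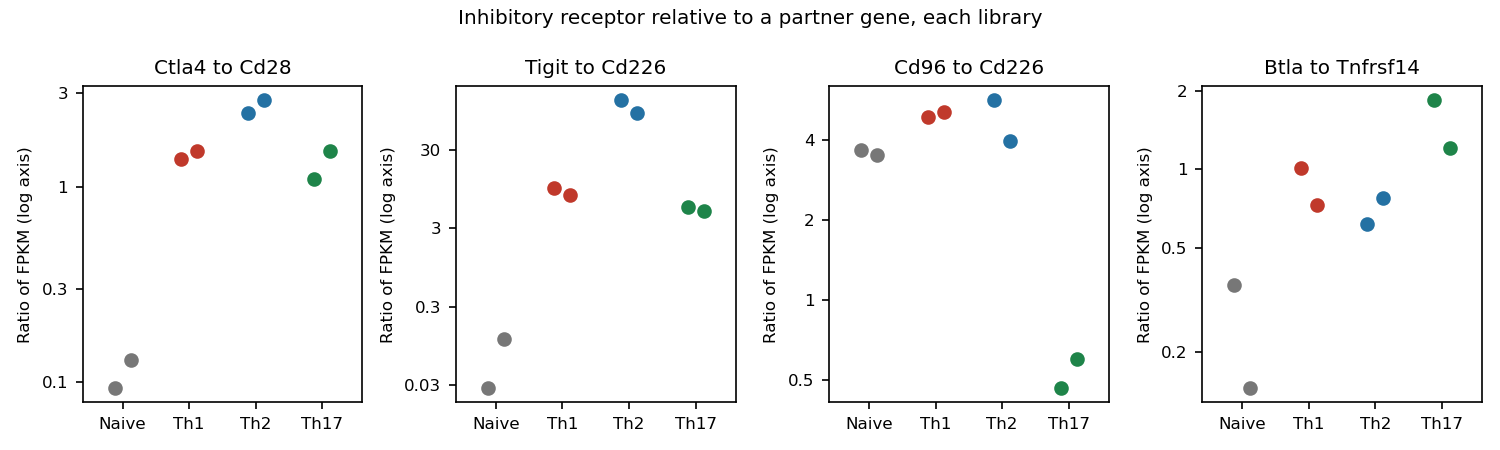
Ratio of the FPKM of an inhibitory receptor to that of a partner gene (vertical axis, log scale, a separate scale for each pair) in naïve, Th1, Th2 and Th17 cells, with a point for each library. The ratios of *Ctla4* to *Cd28*, *Tigit* to *Cd226* and *Btla* to *Tnfrsf14* are lowest in the 2 naïve libraries, and that of *Cd96* to *Cd226* is lowest in the Th17 libraries, at 0.465 and 0.597.

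Of the 15 genes for ligands and partners, 11 were tested. Of these, 5 were higher and 4 lower in Th1, 5 higher and 4 lower in Th2, and 6 higher and 3 lower in Th17 cells than in naïve cells (all genes tested: 33.8% and 33.5%, 31.8% and 38.7%, 37.5% and 29.8%). Among them *Pdcd1lg2*, *Cd80* and *Pvrl2* were below 0.4 FPKM in both naïve libraries and were tested because of their effector levels. *Lgals3*, which encodes galectin-3, a ligand of LAG-3, was 1.34 and 1.23 FPKM in naïve, 309 and 360 in Th1, 26.9 and 27.3 in Th2 libraries, and 57.4 and 62.6 in Th17 libraries, with differences of 7.19, 3.62 and 4.74 (adjusted p = 9.32e-08, 3.56e-07 and 1.88e-07). *Pdcd1lg2*, the gene of PD-L2, rose by 1.02, 1.61 and 2.09 in Th1, Th2 and Th17 cells (adjusted p = 0.000113, 9.88e-06 and 3.06e-06), and the Th1 call was lost with quantile normalization (adjusted p = 0.0823). *Cd80*, a ligand of CTLA-4 and CD28, rose by 2.98, 0.98 and 3.66 (adjusted p = 1.27e-05, 0.00277 and 4.15e-06), and its Th2 call was lost with quantile normalization (adjusted p = 0.280). *Pvrl2*, the gene of nectin-2, rose by 0.59, 2.25 and 1.62 (adjusted p = 0.00389, 4.43e-06 and 2.34e-05), with its Th1 difference turning to -0.04 under quantile normalization. *Tnfrsf14* was 59.6 and 133 FPKM in the naïve libraries, which thus differed widely, and 7.42 to 20.7 FPKM in effector libraries. It was lower by -2.50, -3.38 and -2.29 (adjusted p = 0.000896, 0.000176 and 0.00134). With 1 library left out its Th1 difference ranged from -3.07 to -1.93. *Lgals9*, whose product galectin-9 binds TIM-3, was lower by -1.63, -1.40 and -1.47 (adjusted p = 1.31e-05, 2.37e-05 and 1.91e-05). *Pvr*, the gene of the poliovirus receptor, was lower by -1.04, -0.31 and -1.04 (adjusted p = 0.000163, 0.0389 and 0.000150), and its Th2 call was lost with median scaling, quantile normalization, a fit of the 2 groups alone, and without the first naïve, the second naïve or the first Th2 library (adjusted p = 0.0836 to 0.184).

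Of the 16 signaling and trafficking genes, 3 were higher and 7 lower in Th1, 1 higher and 9 lower in Th2, and 2 higher and 8 lower in Th17 cells, beside the same shares of all genes tested (33.8% and 33.5%, 31.8% and 38.7%, 37.5% and 29.8%). *Dok1*, which encodes an adaptor that dampens receptor signaling, rose by 0.89, 0.44 and 1.09 (adjusted p = 0.00203, 0.0397 and 0.000728), and its Th2 call was lost without the filter (adjusted p = 0.0647), in a fit of the 2 groups alone (adjusted p = 0.112), without the second naïve library (adjusted p = 0.181) and without the first Th2 library (adjusted p = 0.195). The adaptor genes *Lax1* and *Trat1*, of which the *Trat1* product stabilizes CTLA-4 at the cell surface, were lower by -1.85, -3.67 and -2.86 and by -1.03, -3.31 and -2.66. The kinase gene *Lck* was lower by -0.70, -1.33 and -1.01, and *Rasa1*, which encodes a Ras GTPase-activating protein, by -0.995, -0.997 and -0.69. The adjusted p of these 4 genes was at most 0.00737.

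Of 12 other inhibitory receptor genes, 9 were tested. Of these, 3 were higher and 5 lower in Th1, 1 higher and 6 lower in Th2, and 3 higher and 4 lower in Th17 cells (all genes tested: 33.8% and 33.5%, 31.8% and 38.7%, 37.5% and 29.8%). *Lilrb4*, the 1 gene of this list that was higher in all 3 subsets, was 0.198 and 0.181 FPKM in naïve libraries and 444 to 940 FPKM in effector libraries. It was tested only because of its effector levels, so that it had to differ from naïve cells. Its differences were 8.62, 9.56 and 8.74 (adjusted p = 1.09e-07, 6.01e-08 and 1.09e-07). *Sit1* was lower by -2.98, -3.68 and -2.93 (adjusted p at most 3.84e-06), and *Pecam1* by -1.42, -0.45 and -0.69 (adjusted p at most 0.00649). Of the 6 family relatives, only *Cd200r4* was tested, and it was lower by -0.81, -1.40 and -1.51 (adjusted p at most 0.000930). *Cd4*, next to *Lag3*, was 358 and 373 FPKM in naïve, 251 and 274 in Th1, 187 and 207 in Th2 libraries, and 233 and 259 in Th17 libraries, and was lower by -0.48, -0.89 and -0.57 (adjusted p = 0.00807, 0.000358 and 0.00355), with the Th1 call lost without the first Th1 library (adjusted p = 0.0551). Antigen-presenting cells were part of the effector cultures and also express several ligand genes and *Lilrb4*. The 4 B cell genes summed to 6.37 to 8.28 FPKM in naïve, 2.15 to 3 in Th1, 6.80 to 9.33 in Th2 and 10.5 to 11.4 in Th17 libraries. The 5 myeloid genes summed to 12.2 to 12.8, 7.94 to 8.73, 20.8 to 27.8 and 17.0 to 17.2 FPKM, and the 5 dendritic cell genes to 0.728 to 0.815, 1.22 to 1.36, 2.72 to 2.82 and 3.88 to 3.90 FPKM, in the same order of groups. Genes within the dendritic and myeloid lists moved in opposite directions between naïve and Th1 cells. The mean FPKM of *Xcr1* rose from 0.00103 to 0.873, and that of *Itgax* fell from 0.613 to 0.130. That of *Cd14* rose from 0.339 to 2.75, and that of *Csf1r* fell from 3.52 to 0.187. For the *Lilrb4* product, CD85k, the paper reported uniform staining of all Th cells by flow cytometry, which measures protein. The part of antigen-presenting cells in the ligand and *Lilrb4* mRNA levels of these libraries was not tested. The ratio of *Lag3* to *Cd4* FPKM was 0.00108 and 0.00386 in naïve libraries and 0.0815 to 0.122 in effector libraries.

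Of the 10 receptor genes, 5, *Tigit*, *Cd200r1*, *Btla*, *Cd200* and *Cd96*, lie within a stretch of 2.47 Mb on chromosome 16, from 43648861 to 46120248. The stretch held 35 genes, of which 20 were tested. In Th1, Th2 and Th17 cells 11, 15 and 9 of them were lower than in naïve cells, against 33.5%, 38.7% and 29.8% of all genes tested. In each subset 3 were higher, against 33.8%, 31.8% and 37.5% of all genes tested, and these were *Tigit*, *Cd200* and *Atp6v1a*, the last named after its values were seen. Members of this stretch thus moved in both directions, *Tigit* and *Cd200* up and *Cd96* down in each subset.

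The genes whose pattern over the 8 libraries was most like that of each receptor were found by Pearson's r on the log2(FPKM + 1) scale, as a description over 8 libraries in 4 groups. *Ctla4* was most like *Egln3* (r = 0.999) and *Ttk* (r = 0.999), and *Lag3* most like *Dusp4* and *Kif22* (r = 0.997 each). *Tigit* was most like *Ccr4* (r = 0.994) and *Gm11110* (r = 0.993), *Pdcd1* most like *Fbxw17* (r = 0.995) and *Dhdds* (r = 0.993), and *Cd200* most like *Siah3* (r = 0.997) and *Pik3r6* (r = 0.993). *Cd96* was most like *Cd97* (r = 0.9975) and *Gm14085* (r = 0.997), and *Havcr2* most like *Prr5l* and *Ptger3* (r = 0.9985 each). For *Btla* the values were lower, with *BC005624* (r = 0.981) and *Cd69* (r = 0.979), and for *Cd200r1* with *Rmrp* (r = 0.963) and *Rmnd1* (r = 0.943).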

How the data were processed

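RNA from naïve CD4 T cells and effector Th1, Th2 and Th17 cells was sequenced in 8 libraries, 2 a group, grouped by their labels. The authors aligned reads to mm10 with TopHat 1.3.2, which calls Bowtie 0.12.8, computed FPKM per gene with Cufflinks 2.0.2, per the submitters' processing notes, and deposited FPKM with confidence bounds. The gene annotation is not given in the sources used here. The library kit in the labels keeps the strand, and the kit in the methods does not.

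FPKM were summed per symbol (462 rows shared a symbol with another), and genes averaging 1 FPKM or more were tested on log2(FPKM + 1), a pseudocount of 1. limma (version 3.58.1, R 4.3.3; lmFit, contrasts.fit, eBayes with trend) fitted all 8 libraries at once. Tests were two-sided, with Benjamini-Hochberg adjustment over the 11198 genes and a threshold of 0.05. Tables were made in Python 3.11.15 (numpy 2.4.6, pandas 2.3.3). The model was tested on simulated data. FPKM are not counts, so no count model was used. Implied fragments were estimated from the width of the deposited confidence bounds and cover counting error only.

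The receptors and lists were chosen with earlier results of these data known. From each list, genes that passed in all 3 comparisons with naïve cells in 1 direction were named, at most 4 a direction. They were ranked by the smallest of their 3 absolute differences, with the largest first. The 2 genes most like each receptor were also named. *Cd4*, *Cd28* and *Icos* were always named. Alternatives were a pseudocount of 0.1, no filter, median scaling, quantile normalization, a fit of 2 groups, the replicate block and leaving out each library. Further alternatives were a fit with no mean-variance trend and the highest row of a repeated symbol in place of the sum.

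Same-numbered libraries deviated together (correlations of replicate differences 0.138 to 0.294 over the 6 pairs of groups), so the numbers were taken as pairing in the replicate block. The pairing comes from the numbers in the labels. It was not used in the main fit, whose SEs and p-values are unpaired. A planned search for protein motifs was not run, since no protein sequences were used here. A marker gene and a promoter motif of the lists are not reported here.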

Additional observations from a re-analysis of the deposited data

Results flagged for a closer look

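The difference from naïve cells was not the same in a pair of subsets for 7 of the 9 tested receptors, by limma's test of the difference between the subsets. Of all genes tested, 31.7% were higher and 12% lower in Th17 than in Th2 cells, and 27.4% higher and 16.9% lower in Th1 than in Th2 cells. In Th1 against Th17 cells 9.17% were higher and 16% lower. Each of these shares is for 1 pair, whereas a receptor was counted if any of the 3 pairs passed. The share of all genes that passed in any pair was not computed, so the 7 has no matching share. Because the naïve libraries are shared, the change in the difference from naïve cells equals the difference between the subsets. It was 1.78 for *Pdcd1* (adjusted p = 0.000648), -0.70 for *Ctla4* (adjusted p = 0.00401), 2.09 for *Btla* (adjusted p = 7.54e-05) and 2.95 for *Cd200* (adjusted p = 1.75e-05) in Th17 against Th2 cells. It was -1.36 for *Tigit* (adjusted p = 0.0130), 2.13 for *Havcr2* (adjusted p = 8.19e-05) and 1.83 for *Cd96* (adjusted p = 0.000171) in Th1 against Th2 cells. Of the 7, *Havcr2* was tested only because of its Th1 level, so that it had to differ. The *Tigit* difference fell short of the threshold with a pseudocount of 0.1 (adjusted p = 0.0803) and without 3 of its 4 libraries, one at a time.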

How the results depend on the processing

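The numbers of receptors called in each comparison stayed within 1.5 times in all 72 values computed under alternatives. Of 648 values for single receptors, 614 kept direction and call, 17 lost the call, 4 gained it and 13 changed sign. The 614 include settings that leave every difference of the receptors as it was, so that no sign could change. These were no filter, no mean-variance trend, the replicate block, the fit of 2 groups and the highest row of a repeated symbol. The last of these did not alter the values of the receptors at all. Those that changed sign with quantile normalization were *Havcr2* in Th2 against naïve cells (-0.57), Th17 against naïve cells (-0.68) and Th17 against Th2 cells (-0.11), *Lag3* in Th17 against Th2 cells (-0.063), and *Cd200r1* in Th1 against Th17 cells (0.069). Of the other named genes, *Pvrl2* in Th1 against naïve cells changed sign with quantile normalization (-0.040). With median scaling the receptors that changed sign were *Lag3* in Th17 against Th2 cells (-0.079) and *Cd200r1* in Th1 against Th17 cells (0.029). With 1 library left out, values ranged from -0.044 to 0.046 for *Havcr2* in Th2 against naïve cells, from -0.11 to 0.30 for *Lag3* and -0.33 to 0.061 for *Tigit* in Th17 against Th2 cells, and from -0.24 to 0.14 for *Cd200r1* in Th1 against Th17 cells. The cause of these changes was not tested. With the replicate block no receptor changed its call, and *Btla* in Th17 against naïve cells was 0.33 (adjusted p = 0.0587).

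The median difference of all genes from naïve cells was -0.01, -0.11 and 0.08 in Th1, Th2 and Th17 cells as deposited, and -0.13, -0.13 and -0.12 with quantile normalization. In Th17 against Th2 cells it was 0.18 as deposited and 0.00 with quantile normalization. With 2 libraries a group an SD is a rough estimate, and leaving out 1 library leaves a lone sample that is assumed to vary like the other groups. Levels below 1 FPKM rest on few fragments.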
